A study of Mus musculus with 12 samples.

Results

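The nuclear-encoded subunits of the respiratory chain and of ATP synthase were examined in a mouse alveolar macrophage line. Their genes were found by symbol. A gene was included if its symbol begins with Ndufa (but not Ndufaf), Ndufb, Ndufc, Ndufs or Ndufv (complex I), Uqcr (complex III), Cox4, Cox5, Cox6, Cox7 or Cox8 (complex IV) or Atp5 (ATP synthase), if the annotation places it in the main category, and if its mean log2 level over the 12 arrays was at least 6. Each symbol was represented by its feature of highest mean level. The prefixes matched 81 symbols on 91 features, and 63 genes met the level, among 27293 genes tested. Of these, 30 were assigned by prefix to complex I, 7 to complex III, 12 to complex IV and 14 to ATP synthase. Under the level stayed 7, 1, 6 and 4 symbols of the same complexes. The prefix alone decided the complex, so the ATP synthase count includes the pseudogene Atp5l-ps1.

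RNA came from 6 clones of MH-S, a cell line of mouse alveolar macrophages, and was hybridised to Affymetrix MoGene 2.1 ST arrays. Clones 69, 73 and 83 are labelled as having high activity of IL-4Ra, the alpha chain of the interleukin-4 receptor, and clones 7, 29 and 75 as having low activity. Each clone was stimulated with 0.2 µg/ml lipopolysaccharide (LPS) of Salmonella Minnesota R595 for 16 h or left unstimulated for 16 h. The 4 groups were therefore high clones with LPS, high clones unstimulated, low clones with LPS and low clones unstimulated, with 3 arrays each. No genetic change is named in the labels for any clone, and the labels do not say how IL-4Ra activity was measured. Every clone derives from the same line and was measured once per condition, so the p-values below measure the spread between arrays of different clones, with no repeat culture of a clone.

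The respiratory chain moves electrons from NADH (complex I) or succinate (complex II) through ubiquinone and complex III to cytochrome c and complex IV, which passes them to oxygen, and the proton gradient built on the way drives ATP synthase. Most subunits are encoded in the nucleus and imported, and a few core subunits are encoded by mitochondrial DNA. Macrophages activated by LPS are known to draw more on glycolysis and less on mitochondrial respiration, and several subunits of complex IV and ATP synthase exist as isoforms with different tissue patterns.

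All 12 arrays had nearly the same median log2 level, between 4.42 and 4.46, and the mean correlation across genes between the arrays within a group was 0.992 to 0.994. The LPS array of clone 75 stood apart in having the narrowest distribution, with an SD of 2.46 log2 units, against 2.52 to 2.54 on the other LPS arrays. Some of the values that it moves, but not all, are therefore also given without its 2 arrays. Of 8 macrophage markers, 7 had a mean level of at least 6. Only 1 of 6 alveolar macrophage markers and 1 of 4 fibroblast markers reached it, and no marker of epithelium, lymphocytes, neutrophils or striated muscle did. The summed log2 level of 4 fibroblast markers was higher in low clones with LPS (20.1 to 23.7) than in high clones with LPS (19.0 to 19.6), high clones unstimulated (18.6 to 19.1) or low clones unstimulated (18.5 to 18.8), mainly through Dcn (5.97 ± 1.65 in low clones with LPS and 3.36 ± 0.12 in low clones unstimulated; SD, n = 3). The summed level of 3 neutrophil markers was 13.2 to 13.3 in high clones with LPS, against 11.1 to 11.9 unstimulated, and 12.2 to 12.6 in low clones with LPS, against 11.2 to 11.5 unstimulated. The part of these markers in the results below was not tested. In bulk RNA of this kind, fewer cells of a type and less RNA per cell cannot be told apart.

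Not every value came from the gene that names it. By the annotation's coordinates on mm10, 57 of the 63 genes were measured at their own locus. Another 5 were represented by a feature elsewhere in the genome because it had the higher mean level: Atp5g2 by a feature on chromosome 17 (its gene lies on chromosome 15), Atp5h on chromosome 15 (gene on 11), Cox6c on chromosome 12 (gene on 15), Cox7b on chromosome 1 (gene on X) and Ndufb3 near its gene on chromosome 1. The remaining one, Atp5l-ps1, is a pseudogene without a match in the RefSeq table. The annotation marks 4 of the 63 features as able to bind other transcripts, and the signal of a gene and of its copies cannot be told apart on such features. Features at the genes themselves did not always give the same sign. Their log2 difference, LPS minus unstimulated over the 6 clones, was 0.27 for Cox7b, 0.18 for Atp5h and 0.03 for Cox6c. On the features used it was −0.225, −0.125 and −0.07. For Ndufb3 it was −0.05 at the gene and 0.00 on the feature used, and for Atp5g2 −0.31 and −0.26.

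The sequences upstream of genes called lower with LPS are shown because the known regulators of respiratory genes bind close to the start site. Whether the motifs have a part in the LPS differences was not tested. The motifs of 4 such regulators were searched on both strands of the 250 bases before the start, namely the NRF1 core GCGCATGC, the GABP (ETS family) core CCGGAAG, the ERR site TCAAGGTCA and the Sp1 box GGGCGG, together with the consensus site of NF-kB. Of the 63 genes, 52 had a promoter in RefSeq (GRCm38.p6). The windows of Cox7a1, the gene with the largest change, and of the 3 other genes with a called change whose window held a motif were as follows, 5′ to 3′ on the gene's strand, with capitals for the motif.
Cox7a1 (chr7:30183921-30184170, plus strand, no motif): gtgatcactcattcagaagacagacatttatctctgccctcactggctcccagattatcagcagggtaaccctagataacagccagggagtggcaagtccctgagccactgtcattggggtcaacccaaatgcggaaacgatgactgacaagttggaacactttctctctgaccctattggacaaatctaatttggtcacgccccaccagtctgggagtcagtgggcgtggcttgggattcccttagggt
Ndufv3 (chr17:31519865-31520114, plus strand, Sp1 box): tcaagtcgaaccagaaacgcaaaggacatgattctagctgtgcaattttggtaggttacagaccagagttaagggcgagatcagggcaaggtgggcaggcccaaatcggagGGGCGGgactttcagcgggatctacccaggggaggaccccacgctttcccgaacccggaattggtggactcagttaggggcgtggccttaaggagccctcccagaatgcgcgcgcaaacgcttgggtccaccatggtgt
Uqcr11 (chr10:80406822-80407071, minus strand, GABP core): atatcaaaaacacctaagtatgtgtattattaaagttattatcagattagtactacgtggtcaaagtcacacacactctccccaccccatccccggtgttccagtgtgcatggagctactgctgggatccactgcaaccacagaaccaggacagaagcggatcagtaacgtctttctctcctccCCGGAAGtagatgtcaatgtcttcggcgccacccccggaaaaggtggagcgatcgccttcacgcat
Atp5g2 (chr15:102671048-102671297, minus strand, NRF1 core on both strands, overlapping): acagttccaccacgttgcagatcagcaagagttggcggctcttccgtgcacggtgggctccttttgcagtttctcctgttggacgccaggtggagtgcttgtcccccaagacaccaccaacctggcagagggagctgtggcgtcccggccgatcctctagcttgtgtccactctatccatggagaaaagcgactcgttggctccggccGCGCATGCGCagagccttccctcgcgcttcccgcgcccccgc
The windows of Ndufs8 and Ndufv1 also held none of these letters. A gene with several promoters was counted once if any of its windows held the motif. Among the 52 genes, the NRF1 core was present in 5 (9.62%, against 2.56% of all 27025 genes with a promoter) and the GABP core in 10 (19.2%, against 7.83%). The ERR site was present in 1 (1.92%, against 0.422%) and the Sp1 box in 21 (40.4%, against 35.4%). The NF-kB sequences searched were in 0 of the 52 genes and in 0.263% of all genes with a promoter. These include genes of low level, and the shares among genes with a mean level of at least 6 were not counted. A match describes letters only, and a missing match says only that these letters are not in this window.

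With LPS, most respiratory chain and ATP synthase genes had estimates slightly below 0, and 1 of them, Cox7a1, fell by more than 2-fold. Over all 6 clones, 6 of the 63 genes fell and none rose at an adjusted p under 0.05 (limma, Benjamini-Hochberg over 27293 genes), and 15 had an unadjusted p under 0.05. The share that fell, 9.52%, stands beside 6.72% of all genes tested (5.72% rose) and 14.5% of the 9927 genes with a mean level of at least 6 (11.6% of these rose). A called fall was thus no more frequent here than among these 9927 genes. They passed the same minimum of 6 but were not matched in level to the 63 genes. The median level of the 63 lay between 9.66 and 10.22 by array. The log2 difference, LPS minus unstimulated, was below 0 for 55 of the 63 genes, with a median of −0.11. Among the 9927 genes 52.5% of the estimates were below 0 and the median was −0.02 (−0.01 over all genes). The median SE of the 63 estimates was 0.09. In 19 of the 63 genes (30.2%) the LPS array was lower in each of the 6 clones, as it was in 23.4% of the 9927 genes. Over all genes, 11.2% were lower in each clone. No respiratory gene was higher in all 6 clones, as 18.6% of the 9927 genes and 9.21% of all genes were. By complex, the median difference was −0.11 for complex I (3 of 30 fell), −0.11 for complex III (1 of 7), −0.09 for complex IV (1 of 12) and −0.16 for ATP synthase (1 of 14).

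**Figure D1:**
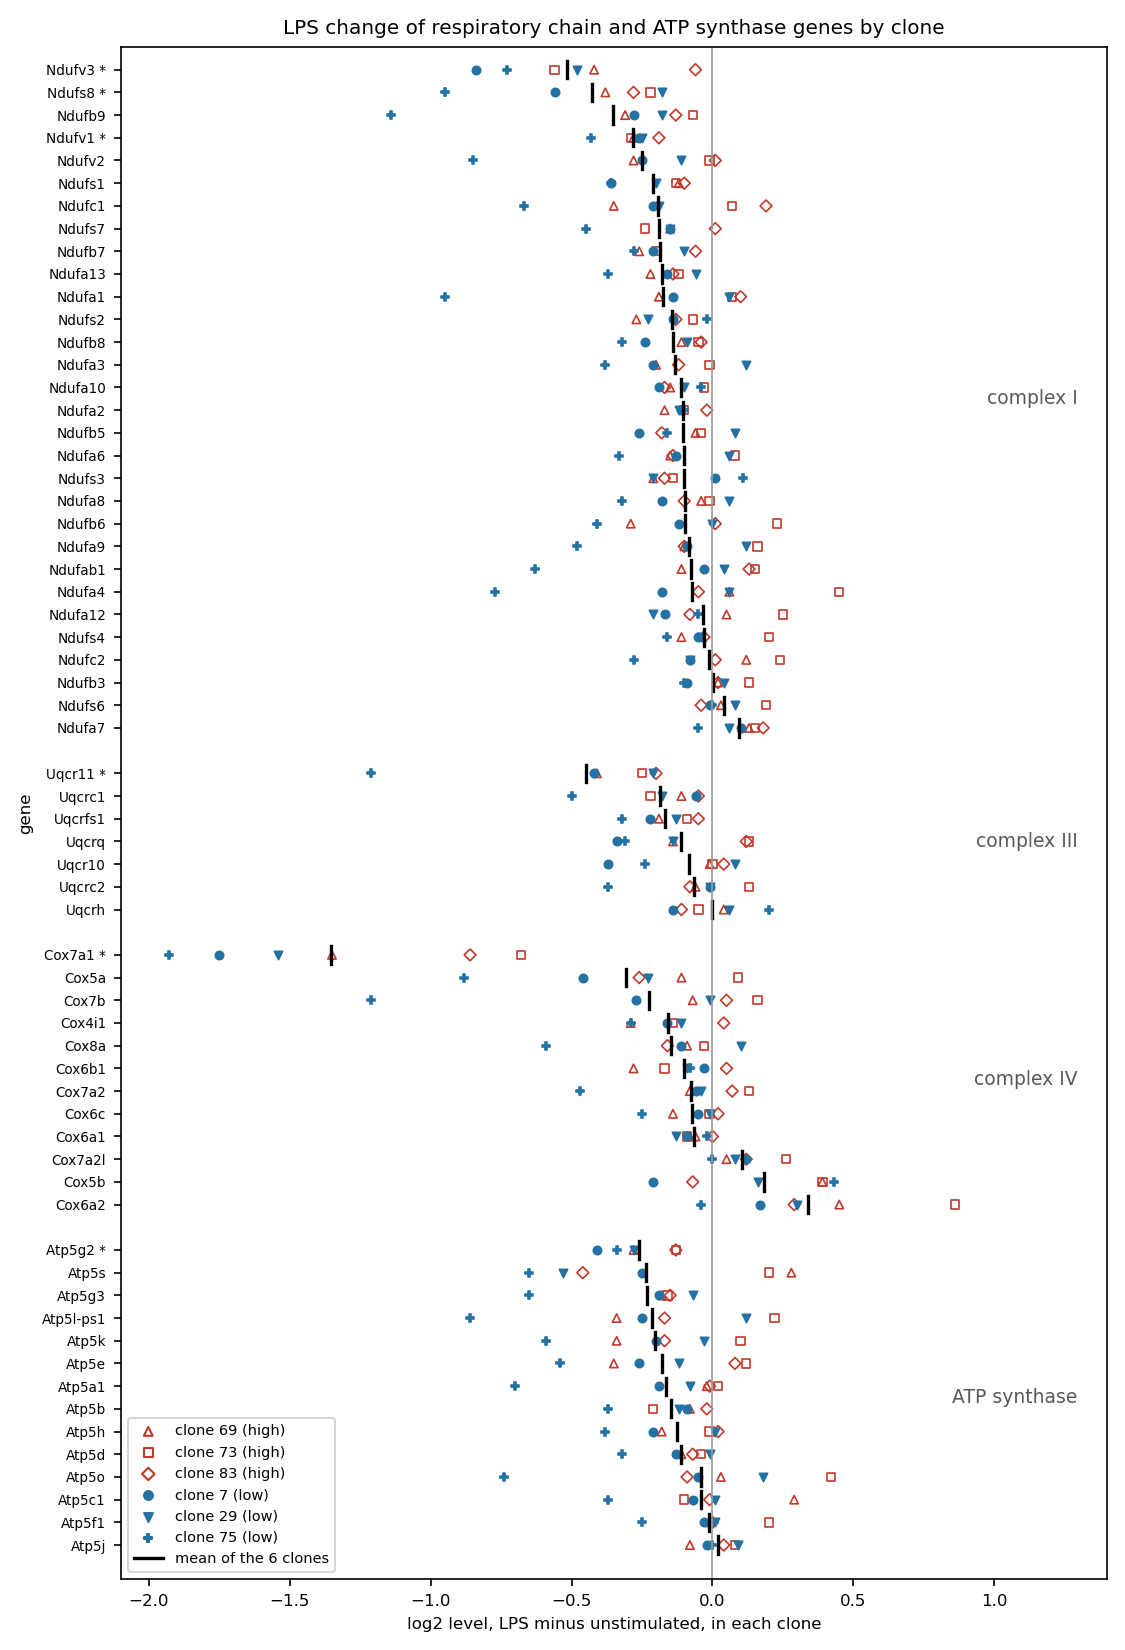
Log2 level with LPS minus log2 level unstimulated for each of the 63 genes in each clone, by complex and ordered by the mean; open red symbols are high clones, filled blue symbols are low clones, black ticks are means of the 6 clones, and an asterisk marks the 6 genes called lower over all clones. Most ticks lie a little left of 0, Cox7a1 lies far to the left in every clone, and clone 75 (blue plus signs) often gives the lowest value.

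Complex I takes electrons from NADH, and 3 of its 30 genes fell, all from the arm that takes up and carries the electrons. Ndufv3 encodes a small subunit beside the flavoprotein core (chromosome 17, 31520115 to 31531326). Its log2 levels with LPS were 6.59, 6.59 and 6.95 in high clones 69, 73 and 83, against 7.01, 7.15 and 7.01 in the same clones unstimulated. In low clones 7, 29 and 75 they were 6.45, 6.96 and 6.58 with LPS, against 7.29, 7.44 and 7.31 unstimulated. Every LPS array thus lay below every unstimulated array, although clone 83 changed by only −0.06. The fall was 0.52 ± 0.10 on the log2 scale (SE; 1.43-fold lower, adjusted p = 0.00349).

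Ndufs8, an iron-sulfur subunit that passes electrons towards ubiquinone (chromosome 19, 3908870 to 3912717), was at 10.90, 11.01 and 11.45 in high clones with LPS, against 11.28, 11.23 and 11.73 unstimulated. The low clones had 10.88, 11.14 and 10.64 with LPS, against 11.44, 11.32 and 11.59 unstimulated. It was lower with LPS in each clone, but the arrays of both conditions overlapped because clone 83 was high in both. The fall was 0.43 ± 0.13 (adjusted p = 0.0409), and it did not pass without clone 7, 69, 73 or 75 (adjusted p between 0.087 and 0.185). Ndufv1 encodes the subunit that binds NADH and FMN (chromosome 19, 4007497 to 4012806), and had 10.24, 10.34 and 10.61 in high clones with LPS, against 10.52, 10.63 and 10.80 unstimulated. The low clones had 10.37, 10.37 and 10.38 with LPS, against 10.63, 10.62 and 10.81 unstimulated. Its fall of 0.28 ± 0.08 (adjusted p = 0.0397) was the most even of the 6, between −0.19 and −0.43 in every clone. It too passed only narrowly, and without any 1 of clones 7, 29, 69, 73 or 75 the adjusted p lay between 0.0819 and 0.127.

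The other core subunits of complex I gave no call. Ndufs1, the largest iron-sulfur subunit, had 9.54, 9.48 and 9.68 in high clones with LPS, against 9.66, 9.61 and 9.78 unstimulated, and 9.49, 9.63 and 9.43 in low clones with LPS, against 9.85, 9.83 and 9.79 unstimulated. Its LPS difference was −0.21 ± 0.07 (adjusted p = 0.0674), with lower LPS arrays in all 6 clones and with no overlap within the low clones. Ndufs7, an iron-sulfur subunit and the complex I gene with the highest mean on the array, had 11.89, 11.77 and 12.06 in high clones with LPS, against 12.04, 12.01 and 12.05 unstimulated. In low clones it had 11.86, 11.87 and 11.61 with LPS, against 12.01, 12.02 and 12.06 unstimulated. The difference of −0.19 ± 0.07 did not pass (adjusted p = 0.134). At the other end, Ndufs6, which had the lowest mean of the complex, ran between 6.40 and 6.65 in high clones with LPS, against 6.21 to 6.62 unstimulated, and between 6.44 and 6.56 in low clones with LPS, against 6.45 to 6.48 unstimulated. Its difference was 0.04 ± 0.08 (adjusted p = 0.837). Ndufb9, a supernumerary subunit of the membrane arm, had the third most negative estimate of the complex, −0.35 ± 0.12, but the LPS array of clone 75 (9.94) lay far under the other LPS arrays (10.67 to 10.99) and the adjusted p was 0.0766. Without clone 75 its difference was −0.20 ± 0.07 (adjusted p = 0.103). Ndufv2, the partner of Ndufv1 in the NADH module, was at −0.25 ± 0.12 (adjusted p = 0.211), and at −0.14 ± 0.09 without clone 75 (adjusted p = 0.45). Ndufc2, a membrane-arm subunit, was the only gene of the 63 with opposite signs in the phenotypes, as 2.41% of all genes had. It had 11.58, 11.50 and 11.67 in high clones with LPS, against 11.46, 11.26 and 11.66 unstimulated, and 11.50, 11.52 and 11.31 in low clones with LPS, against 11.58, 11.60 and 11.59 unstimulated. The estimates above 0 in complex I were those of Ndufa7 (0.10), Ndufs6 (0.04) and Ndufb3 (0.00).

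Complex III passes electrons to cytochrome c, and 1 of its 7 genes fell. Uqcr11, a small subunit of the complex (chromosome 10, 80402997 to 80406830), was at 7.86, 7.84 and 8.23 in high clones with LPS, against 8.27, 8.09 and 8.43 unstimulated. The low clones were at 7.60, 7.89 and 7.17 with LPS, against 8.02, 8.10 and 8.38 unstimulated. The low clones' arrays did not overlap, and those of the high clones did. The fall was 0.45 ± 0.13 (1.37-fold lower, adjusted p = 0.0327). Clone 75 alone fell by 1.21, against 0.20 to 0.42 in the other clones, and without clone 75 the difference was −0.30 with an adjusted p of 0.13. It did not pass without clone 7, 69, 73 or 83 either (adjusted p between 0.0522 and 0.125). With the clone as a block, that difference without clone 75 passed (adjusted p = 0.0312).

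The other genes of complex III gave no call. Uqcrfs1, the Rieske iron-sulfur protein, had 7.33, 7.56 and 7.65 in high clones with LPS, against 7.52, 7.65 and 7.70 unstimulated, and 7.48, 7.57 and 7.43 in low clones with LPS, against 7.70, 7.70 and 7.75 unstimulated. Its difference was −0.17 ± 0.07 (adjusted p = 0.187), lower in 6 of 6 clones. Uqcrc1, a core protein of the matrix side, had 11.18, 11.15 and 11.39 in high clones with LPS, against 11.29, 11.37 and 11.44 unstimulated, and 11.21, 11.20 and 10.80 in low clones with LPS, against 11.27, 11.38 and 11.30 unstimulated. It was also lower in 6 of 6 clones, by 0.05 to 0.50, and did not pass (−0.19 ± 0.09, adjusted p = 0.21). Its partner Uqcrc2, the complex III gene with the highest mean on the array, was within 11.21 to 11.28 in high clones with LPS, against 11.08 to 11.36 unstimulated. In low clones it was within 10.99 to 11.34 with LPS, against 11.29 to 11.36 unstimulated, and the difference over all clones was −0.07 ± 0.08 (adjusted p = 0.707). Uqcrq, a small subunit with the lowest mean of the complex, was within 6.49 to 6.72 in high clones with LPS, against 6.41 to 6.63 unstimulated, and within 6.30 to 6.57 in low clones with LPS, against 6.61 to 6.73 unstimulated. It was higher with LPS in clones 73 and 83 and lower in the other 4 clones (−0.11 ± 0.08, adjusted p = 0.438).

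Complex IV reduces oxygen, and its genes showed both the largest fall and the highest positive estimate among the 63. Both belong to isoforms that are known from heart and skeletal muscle. Cox7a1 encodes the muscle isoform of subunit VIIa (chromosome 7, 30184171 to 30186030). It had log2 levels of 5.39, 5.95 and 6.31 in high clones with LPS, against 6.74, 6.63 and 7.17 in the same clones unstimulated. In low clones it had 5.58, 5.89 and 5.04 with LPS, against 7.33, 7.43 and 6.97 unstimulated. All 6 LPS arrays lay below all 6 unstimulated arrays, and each clone fell by at least 0.68. With LPS only the array at 6.31 reached the level of 6 required, while every unstimulated array did. The mean of 6.37 over all arrays thus met the level through the unstimulated arrays. Over all clones Cox7a1 fell by 1.35 ± 0.18 (SE; 2.55-fold lower, adjusted p = 0.000202), a call that held when any clone was left out (adjusted p at most 0.00258). The isoforms found in most tissues, measured with their own probes, did not move likewise: Cox7a2 was at −0.08 ± 0.09 (adjusted p = 0.689) and Cox7a2l, a factor that joins complexes III and IV, at 0.10 ± 0.08 (adjusted p = 0.473). The 4 markers of striated muscle lay between 2.95 and 4.42 on all arrays.

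Cox6a2, the muscle isoform of subunit VIa (chromosome 7, 128205435 to 128206366), had the highest positive estimate. It had 7.97, 8.17 and 8.09 in high clones with LPS, against 7.52, 7.31 and 7.80 unstimulated. The low clones had 6.93, 7.28 and 6.72 with LPS, against 6.76, 6.98 and 6.76 unstimulated. Its level was higher with LPS in 5 of 6 clones, with clone 75 at −0.04, and the LPS arrays of the high clones did not overlap their unstimulated arrays. The difference over all clones was 0.34 ± 0.11 (adjusted p = 0.063), and with the clone as a replicate block it passed (adjusted p = 0.0322). The block gave 1 rise and 6 falls among the 63 genes, against 7.16% of all genes higher and 8.83% lower. The ubiquitous isoform Cox6a1, which had the highest mean of the complex on the array, stayed within 12.37 to 12.59 in high clones with LPS, against 12.43 to 12.59 unstimulated. In low clones it stayed within 12.33 to 12.52 with LPS, against 12.42 to 12.56 unstimulated, and its difference was −0.07 ± 0.07 (adjusted p = 0.676).

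Among the other subunits of complex IV none was called over all clones. Cox4i1, the ubiquitous isoform of subunit IV, had 10.75, 10.71 and 11.06 in high clones with LPS, against 11.04, 10.85 and 11.02 unstimulated, and 10.79, 10.85 and 10.64 in low clones with LPS, against 10.95, 10.96 and 10.93 unstimulated. It was lower in 5 of 6 clones (−0.16 ± 0.08, adjusted p = 0.257). Cox5a had 9.57, 9.36 and 9.55 in high clones with LPS, against 9.68, 9.27 and 9.81 unstimulated, and 9.41, 9.56 and 8.88 in low clones with LPS, against 9.87, 9.79 and 9.76 unstimulated. The low clones' arrays did not overlap and the high clones' arrays did, with a difference over all clones of −0.31 ± 0.12 (adjusted p = 0.133). Cox7b, measured on chromosome 1, was at −0.22 ± 0.15, with clone 75 at −1.21, and at −0.05 ± 0.08 without clone 75 (adjusted p = 0.825). The feature at its gene on chromosome X, with a mean level of 5.70, was at 0.27 over all clones. Cox5b was the other gene with a positive estimate of some size, 0.18 ± 0.12 (adjusted p = 0.394), and its sign differed between clones.

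ATP synthase makes ATP from the proton gradient, and 1 of its 14 genes fell. Atp5g2 encodes a copy of subunit c, the proton-carrying ring of the membrane part. Its levels were 11.78, 11.81 and 11.89 in high clones with LPS, against 12.06, 11.94 and 12.02 unstimulated. In low clones they were 11.07, 11.19 and 11.22 with LPS, against 11.48, 11.47 and 11.56 unstimulated. Within each phenotype the LPS arrays lay below the unstimulated ones, while over all clones they overlapped because high and low clones differed in level. The fall was 0.26 ± 0.06 (1.20-fold lower, adjusted p = 0.0158). It did not pass without clone 7 (adjusted p = 0.0785) or clone 69 (0.0867). Nor did it pass by the test of the file headers on untransformed values (adjusted p = 0.521). As run here, that test took no account of the level difference between high and low clones. The feature at the gene itself on chromosome 15 (102662868 to 102671047) fell by 0.31 (adjusted p = 0.0106), and both features can bind other transcripts. Atp5g3, another gene for the same subunit, was at −0.23 ± 0.10 (adjusted p = 0.147), and at −0.15 ± 0.08 without clone 75 (adjusted p = 0.313). The remaining gene for subunit c, Atp5g1, had a mean of 5.01, under the level required. With LPS it changed by 0.48, −0.38 and −0.11 in high clones 69, 73 and 83. In low clones 7, 29 and 75 it was higher by 0.28, 0.80 and 0.66. Atp5g1 gave no call with LPS.

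No gene of the catalytic part of ATP synthase was called. Atp5b, the catalytic beta subunit and the gene with the highest mean of the complex on the array, had 12.53, 12.51 and 12.56 in high clones with LPS, against 12.61, 12.72 and 12.58 unstimulated, and 12.54, 12.49 and 12.22 in low clones with LPS, against 12.63, 12.61 and 12.59 unstimulated. Every LPS array was below every unstimulated array, yet the difference was small (−0.15 ± 0.07) and did not pass (adjusted p = 0.234). With Ndufv3 and Cox7a1 it was 1 of 3 genes of the 63 with complete separation by LPS, 4.76%, against 3.43% of all genes and 8.14% of the 9927 genes, and no gene lay wholly above (3.02% and 6.82%). Atp5a1, the alpha subunit, had 12.29, 12.13 and 12.08 in high clones with LPS, against 12.31, 12.11 and 12.09 unstimulated, and 12.21, 12.08 and 11.45 in low clones with LPS, against 12.40, 12.16 and 12.15 unstimulated. Only the LPS array of clone 75 lay outside the rest (−0.16 ± 0.12, adjusted p = 0.476). Atp5c1, the gamma subunit that turns inside the catalytic head, was the gene nearest to the level required, with a mean of 6.06. It had 6.13, 5.99 and 6.10 in high clones with LPS, against 5.84, 6.09 and 6.11 unstimulated, and 6.05, 6.17 and 5.81 in low clones with LPS, against 6.12, 6.16 and 6.18 unstimulated (−0.04 ± 0.08, adjusted p = 0.834).

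**Figure D2:**
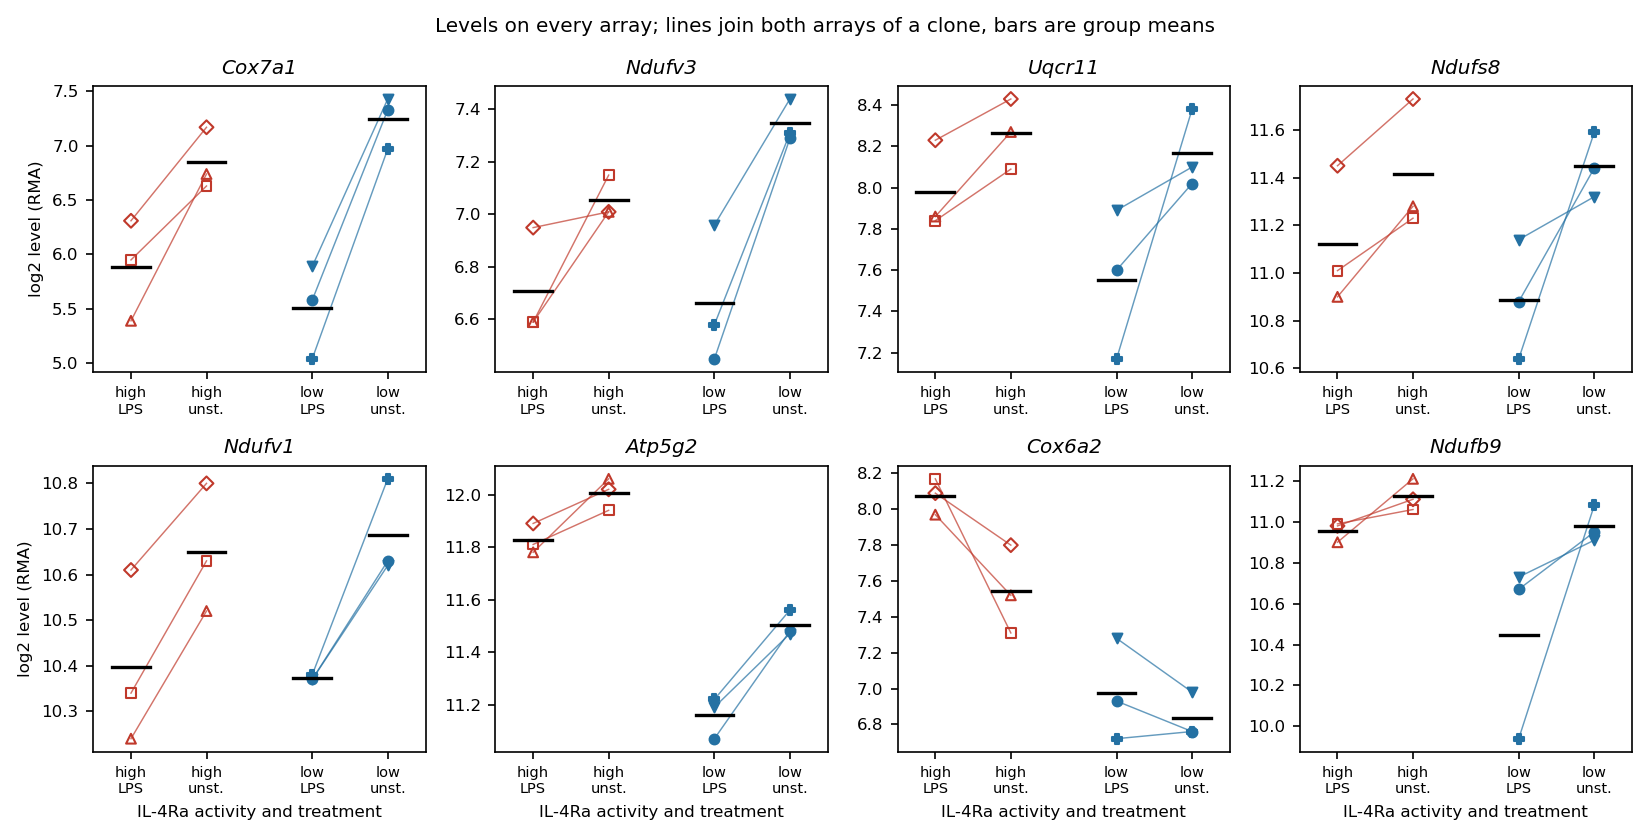
Log2 level on each of the 12 arrays (RMA) for the 6 genes called lower with LPS over all clones, for Cox6a2 and for Ndufb9; high clones in red (triangle 69, square 73, diamond 83), low clones in blue (circle 7, inverted triangle 29, plus 75), LPS left of unstimulated (unst.), lines join the arrays of a clone and bars are group means. The vertical axes differ between panels. Cox7a1 drops in every clone, Cox6a2 and Atp5g2 separate high from low clones in both conditions, and clone 75 with LPS is the lowest array for Uqcr11 and Ndufb9.

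The size of the LPS difference varied between the clones. The median over the 63 genes was −0.11 in clone 69, −0.01 in clone 73 and −0.05 in clone 83, and −0.16 in clone 7, −0.06 in clone 29 and −0.37 in clone 75. The number of genes with a lower LPS array was 50, 33 and 40 in the high clones and 59, 39 and 57 in the low clones. For the 9927 genes with a mean level of at least 6 the medians lay between −0.01 and 0.01 in 5 clones and at −0.09 in clone 75. The LPS array of that clone had the narrowest distribution. Clone 75 was lowest in each complex as well, with medians of −0.35 in complex I, −0.32 in complex III, −0.27 in complex IV and −0.46 in ATP synthase. Without both arrays of clone 75 the median over all clones was −0.08, and 49 of the 63 estimates were below 0. The count of genes that fell was then 3, and 6 with the clone as a block. Without clone 7 or clone 69 the count was 2, and without clone 73 it was 3.

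**Figure D3:**
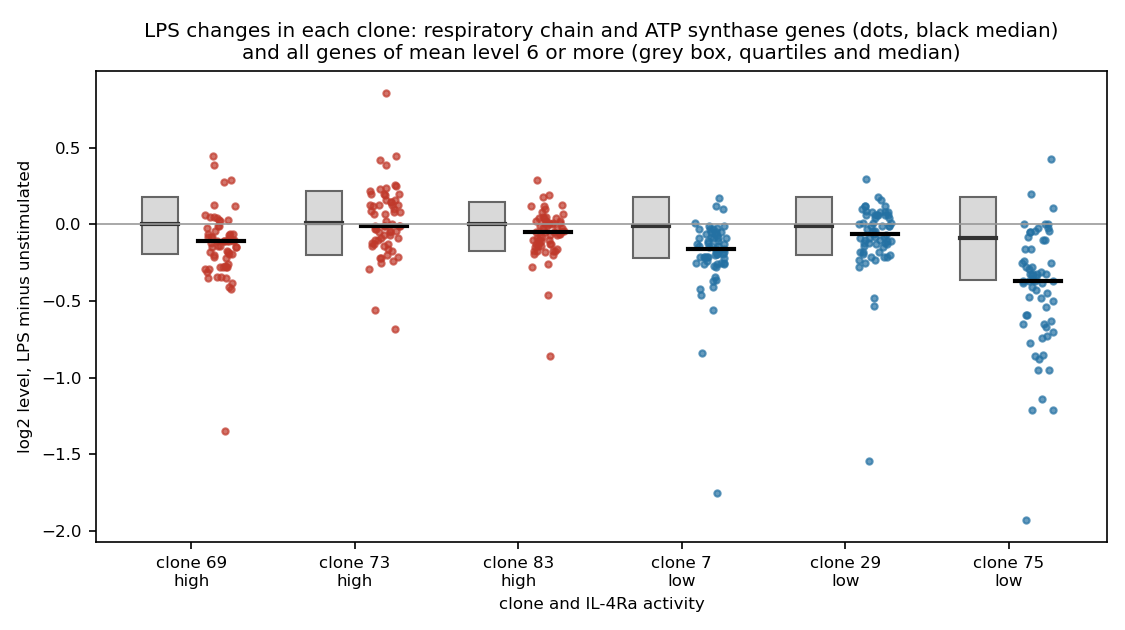
Log2 level with LPS minus unstimulated in each clone; dots are the 63 respiratory chain and ATP synthase genes with their median (black bar), and grey boxes span the quartiles of the 9927 genes with a mean level of at least 6, with their median. The black bars lie between −0.01 and −0.37 and are lowest in clone 75, where the grey median is also lowest.

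Within each phenotype the same comparison had 3 arrays per condition. In high clones no gene rose or fell (background 1.82% higher and 2.06% lower of all genes, 3.94% higher and 4.84% lower of the 9927 genes), 4 had an unadjusted p under 0.05, and the median difference was −0.06. Cox7a1 came nearest, at −0.96 ± 0.25 (adjusted p = 0.0511). With the clone as a replicate block, which removes each clone's own level, Cox7a1 fell (adjusted p = 0.0039) and Cox6a2 rose by 0.53 (adjusted p = 0.0387), 1 gene in each direction, against 3.04% of all genes higher and 3.62% lower. The LPS arrays of the high clones lay wholly below the unstimulated ones for 6 genes (9.52%, against 10.5% of all genes and 16.5% of the 9927 genes) and wholly above for Cox6a2 alone (9.18% of all genes and 16.3% of the 9927 genes).

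In low clones 3 genes fell, 4.76% of the 63, against 4.14% of all genes and 9.27% of the 9927 genes. None rose (3.59% of all genes and 7.36% of the 9927 genes). Cox7a1 fell by 1.74 ± 0.25 (3.34-fold lower, adjusted p = 0.00079), Ndufv3 by 0.68 ± 0.14 (1.61-fold lower, adjusted p = 0.00856) and Atp5g2 by 0.34 ± 0.09 (adjusted p = 0.0348). With the clone as a replicate block 5 fell (4.77% of all genes were higher and 6.06% lower), the added ones being Ndufs8 (−0.56, adjusted p = 0.0311) and Cox5a (−0.52, adjusted p = 0.0372). Without clone 7 the count was 1, and without clone 75 it was also 1. The median over the 63 genes was −0.19 with clone 75 and −0.11 without it, when 55 of the 63 estimates were below 0. With all 3 clones the LPS arrays lay wholly below the unstimulated ones in 25 genes (39.7%, against 13.3% of all genes and 24.5% of the 9927 genes) and wholly above in none (11.8% and 19.0%). These 25 include 11 complex I genes, 4 of complex III, 5 of complex IV and 5 of ATP synthase. The SD of the 3 unstimulated low clones was small for many of them, for example 0.03 for Ndufs1 and 0.02 for Atp5b, against 0.10 and 0.17 with LPS.

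The difference between both responses was itself tested and gave no call among the 63 genes (0.011% of all genes were called, and 0.055% with the clone as a block). The estimate, high clones' LPS difference minus low clones' LPS difference, was above 0 in 57 genes with a median of 0.14. The median was 0.03 in the 9927 genes with a mean level of at least 6. Without clone 75 it was 0.04 over the 63 genes, with 47 above 0. The only gene with an unadjusted p under 0.05 was Cox7a1 (0.78 ± 0.35, adjusted p = 0.983), which differed by −1.35 to −0.68 with LPS in high clones and by −1.93 to −1.54 in low clones. A larger fall in low clones was therefore not established for any of these genes.

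High and low clones were then compared within each condition. Of the 63 genes only Cox6a2 and Atp5g2 passed, and both were higher in high clones in both conditions. With LPS, Cox6a2 was higher by 1.10 ± 0.15 (2.14-fold, adjusted p = 0.00495) and Atp5g2 by 0.67 ± 0.09 (1.59-fold, adjusted p = 0.00415). Unstimulated, the differences were 0.71 ± 0.15 for Cox6a2 (1.64-fold, adjusted p = 0.0471) and 0.50 ± 0.09 for Atp5g2 (1.42-fold, adjusted p = 0.0202). For both genes every array of a high clone lay above every array of a low clone, whichever the condition. These 2 of 63 genes are 3.17%, against 0.982% of all genes called higher with LPS and 0.92% unstimulated, and no gene was called lower (0.333% and 0.216% of all genes were). Among the 9927 genes 2.28% were called higher with LPS and 2.15% unstimulated, and 0.544% and 0.393% lower. The calls with LPS held when any 1 clone was left out. Those without stimulation were close to the threshold: without clone 7, 29, 69, 73 or 83 neither gene passed, and without clone 75 only Atp5g2 did.

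Over the 63 genes the median difference, high minus low clones, was 0.09 with LPS and −0.04 unstimulated. With LPS 56 estimates were above 0, and unstimulated 26 were. Among the 9927 genes the median was 0.03 with LPS, with 43.7% of the estimates below 0, and −0.01 unstimulated, with 51.9% below 0. Without clone 75 the median over the 63 genes was 0.02 with LPS, with 42 above 0, and −0.01 unstimulated, with 30 above 0. Apart from Cox6a2 and Atp5g2, the genes with complete separation with LPS were Ndufb9 (0.51 ± 0.17, adjusted p = 0.232), Ndufa6 (0.29 ± 0.12, adjusted p = 0.38) and Cox6c (0.18 ± 0.09, adjusted p = 0.543). These 5 are 7.94% of the 63 genes, against 7.55% of all genes and 12.5% of the 9927 genes, and no gene lay wholly below (7.71% and 9.75%). Unstimulated, Atp5g2, Cox6a2 and Cox6c lay wholly above (4.76%, against 7.97% of all genes and 12.0% of the 9927 genes), and Ndufs1, Ndufv3, Ndufab1, Ndufa12, Cox7b and Atp5c1 wholly below (9.52%, against 7.68% and 11.9%).

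Of the 5 genes that separated with LPS, 4 have their gene on chromosome 15: Atp5g2, Ndufb9, Ndufa6 and Cox6c, the only 4 of the 63 that lie there. This grouping was noticed after the values were seen. The same direction was found across that chromosome. Of 404 genes on chromosome 15 with a mean level of at least 6, 91.1% had an estimate above 0 with LPS (median 0.29), 49 were called higher and none lower. Unstimulated the figures were 91.6%, a median of 0.25, 46 higher and none lower. The median of the 4 respiratory genes was 0.40 with LPS and 0.19 unstimulated, against 0.09 and −0.04 in the other 59. Among the 20 genes nearest to Atp5g2, within 645 kb, 20 were above 0 in both conditions, with 16 called higher with LPS and 15 unstimulated. The features at the genes themselves gave 0.80 with LPS and 0.48 unstimulated for Atp5g2, and 0.28 and 0.12 for Cox6c. The 20 neighbours of Cox6a2 on chromosome 7, within 539 kb, gave no call in either condition, and their median difference was −0.13 with LPS and −0.06 unstimulated. Whether the difference along chromosome 15 has a part in the values of these 4 genes was not tested.

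**Figure D4:**
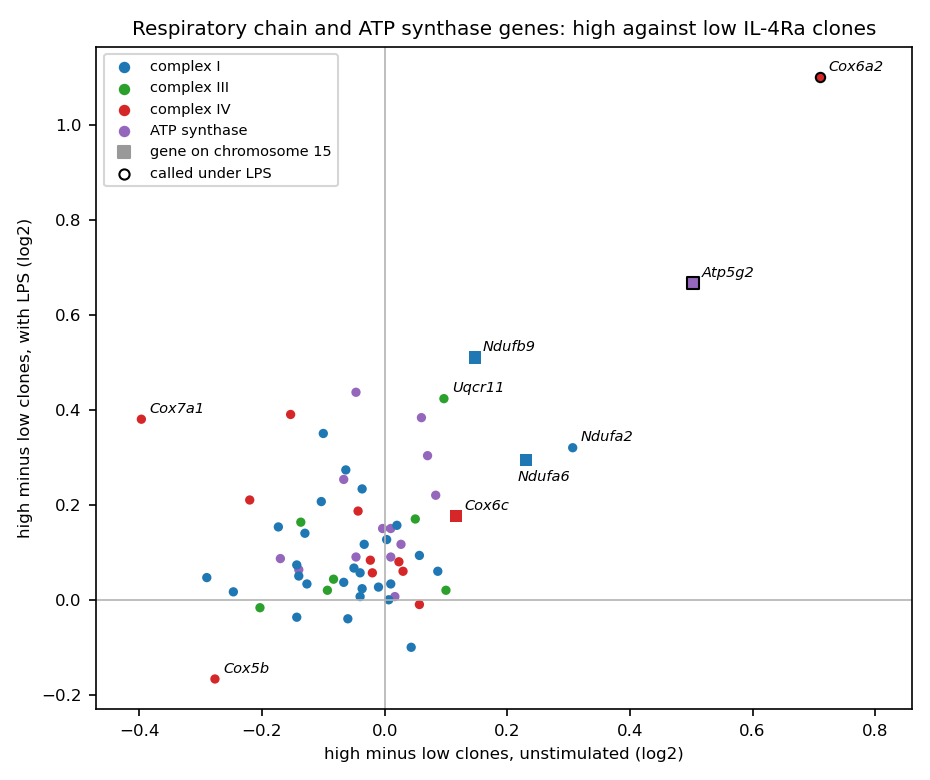
Log2 difference of high minus low clones for the 63 genes, unstimulated on the horizontal axis and with LPS on the vertical axis; colour gives the complex, squares mark genes on chromosome 15 and black outlines mark genes called with LPS. Cox6a2 (0.71, 1.10) and Atp5g2 (0.50, 0.67) lie apart from the rest, and most other genes lie a little above 0 with LPS.

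Genes near the level required were looked at once. Within 0.5 log2 of it, inside were Atp5c1 (mean 6.06), Atp5o (6.32), Cox7a1 (6.37), Atp5s (6.43), Cox5b (6.44) and Ndufs6 (6.48), and outside were Ndufb11 (5.89), Ndufb10 (5.76), Ndufb2 (5.70) and Ndufs5 (5.68). Ndufb2, a membrane-arm subunit, lay between 5.39 and 5.77 in high clones with LPS, against 5.81 to 5.92 unstimulated, and between 5.49 and 5.63 in low clones with LPS, against 5.70 to 5.90 unstimulated. It was lower in all 6 clones and would have been called (−0.29 ± 0.08, adjusted p = 0.031). The other 3 outside gave no call. Ndufb10 and Ndufb11 were lower with LPS in 5 of 6 clones. Ndufs5 was higher in 5 of 6 clones, with changes between −0.11 and 0.80. Its difference over all clones was 0.37, on a feature on chromosome 16 away from its gene on chromosome 4. The feature at the gene was at −0.11. Atp5o, the stalk subunit OSCP, was at −0.04 ± 0.16, with clone 75 at −0.74 and clone 73 at 0.42. Atp5s, a factor named Dmac2l in RefSeq, was at −0.24 ± 0.16 and was higher in clones 69 and 73. The rule on level left out several lowly measured isoforms, among them Cox4i2, Cox6b2, Cox7b2, Cox8b, Cox8c and Ndufa4l2, none of which was called in any comparison.

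In the authors' deposited table, which compares both conditions by its own test on untransformed values, 4 of the 63 genes (Cox7a1, Ndufv3, Ndufv1 and Ndufs1) were lower with LPS and 0 higher at a q-value under 0.05, against 4.92% of all 27293 genes lower and 4.25% higher in the authors' deposited table. Of the 6 falls given above, 3 are thus among these 4, while in the authors' deposited table Ndufs8 (q = 0.0912), Uqcr11 (q = 0.0966) and Atp5g2 (q = 0.401) did not pass.

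The rest of the pathway showed small differences with a few falls and rises. The counts of the lists that follow stand beside 6.72% of all genes that fell and 5.72% that rose, or 14.5% and 11.6% of the 9927 genes with a mean level of at least 6 (8.83% of all genes fell and 7.16% rose with the block). Of 10 subunits encoded by mitochondrial DNA, none was called with LPS over all clones, 9 had estimates below 0 and the median was −0.16. Clone 75 stood apart for the core subunits. ND1, a core subunit of complex I, differed by −0.66 in clone 75 and between −0.15 and 0.03 in the other 5 clones, and COX1, the catalytic subunit of complex IV, by −0.69 and between −0.06 and 0.03. In low clones all 10 were below 0 (median −0.29), and in clones 7 and 29 alone the mean change was also below 0 for all 10, with a median of −0.08. In high clones 8 were below 0 (median −0.03). Over the 5 clones without clone 75 the median was −0.04. No difference of response was called for any of the 10.

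Of 10 measured genes of complex II and the electron carriers 3 fell and 1 rose. Coq10a, a ubiquinone-binding protein, had 7.99, 7.77 and 7.94 in high clones with LPS, against 8.80, 8.72 and 8.81 unstimulated, and 7.81, 7.83 and 7.84 in low clones with LPS, against 8.63, 8.55 and 8.80 unstimulated. Its fall of 0.86 ± 0.07 (adjusted p = 5.02e-06) was nearly the same in each clone. Sdha, the catalytic subunit of succinate dehydrogenase, fell by 0.33 ± 0.08 (adjusted p = 0.0154), between 0.25 and 0.53 by clone, and Etfdh, which feeds electrons from fatty acid oxidation into ubiquinone, fell by 0.44 ± 0.09 (adjusted p = 0.00658). Gpd2, which feeds electrons from cytosolic glycerol phosphate, rose by 0.35 ± 0.10 (adjusted p = 0.0389). With the clone as a replicate block Sdhb (−0.29, adjusted p = 0.0225) and Sdhc (−0.27, adjusted p = 0.0492) fell too. Cycs, the gene of cytochrome c, was at 0.05 ± 0.07 (adjusted p = 0.756).

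In the citrate cycle 3 of 14 genes fell and none rose. They were Idh2, the mitochondrial NADP-dependent isocitrate dehydrogenase (−0.60 ± 0.07, adjusted p = 0.000111), Ogdh, a part of the oxoglutarate dehydrogenase complex (−0.32 ± 0.07, adjusted p = 0.00691), and Idh3g, a subunit of the NAD-dependent isocitrate dehydrogenase (−0.27 ± 0.07, adjusted p = 0.0222). With the clone as a replicate block Fh1, the gene of fumarase, fell too (−0.29, adjusted p = 0.0129, against 0.187 without the block). Sucla2, a succinyl-CoA ligase subunit, was higher in high than in low clones with LPS (0.59 ± 0.09, adjusted p = 0.00782) and unstimulated (0.42 ± 0.09, adjusted p = 0.0484).

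Assembly factors went both ways. Of 41 measured, 3 fell and 1 rose, and the median was −0.02. Ndufaf3 (−0.53 ± 0.08, adjusted p = 0.000888), Nubpl (−0.38 ± 0.11, adjusted p = 0.031) and Ndufaf7 (−0.29 ± 0.09, adjusted p = 0.0491), all of which serve complex I, fell, while Ndufaf1, another complex I factor, rose by 0.35 ± 0.10 (adjusted p = 0.0409). With the clone as a replicate block 4 fell and 3 rose. The added ones were Bcs1l (−0.25, adjusted p = 0.0278) and Coa3 (−0.24, adjusted p = 0.0474), which fell, and Cox18 (0.31, adjusted p = 0.0355) and Ndufaf4 (0.21, adjusted p = 0.0457), which rose, and Ndufaf7 did not pass (adjusted p = 0.0598). Cox20, which helps to insert a core subunit of complex IV, was lower in high than in low clones with LPS (−0.89 ± 0.18, adjusted p = 0.0297) and unstimulated (−0.87 ± 0.18, adjusted p = 0.0348).

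Among the subunits whose symbols lie outside the prefixes, 1 of 6 fell, Atpif1, the inhibitor of ATP synthase (−0.29 ± 0.08, adjusted p = 0.0288). AA467197 (also known as Nmes1) lay between 3.23 and 3.52 on all arrays. Of 7 genes of adenine nucleotide and phosphate exchange and uncoupling, Ucp2 fell by 0.42 ± 0.09 (adjusted p = 0.0103) and Vdac3, an outer membrane channel, rose by 0.38 ± 0.07 (adjusted p = 0.00291). Of 17 regulators of mitochondrial biogenesis, Myc rose by 0.53 ± 0.10 (adjusted p = 0.00349) and Tfam, which maintains and transcribes mitochondrial DNA, by 0.37 ± 0.07 (adjusted p = 0.00461). Myc was higher by 0.30, 0.17 and 0.28 in high clones 69, 73 and 83. In low clones 7, 29 and 75 it was higher by 0.66, 0.75 and 1.04, and the difference between both responses gave no call. Unstimulated, Myc was called higher in high than in low clones, by 0.74. Pparg, a nuclear receptor of alveolar macrophages, fell by 1.33 ± 0.19 (adjusted p = 0.000342). The block gave 3 rises and 2 falls among these 17. The added ones were Ppargc1a, the coactivator PGC-1alpha, and Pprc1, a related coactivator. Ppargc1a had 8.05, 8.77 and 8.86 in high clones with LPS, against 8.53, 9.20 and 9.33 unstimulated, and 8.62, 9.26 and 9.45 in low clones with LPS, against 9.21, 9.48 and 9.39 unstimulated. It was lower in 5 of 6 clones, all but clone 75, while the arrays of both conditions overlapped. Its difference of −0.36 ± 0.18 did not pass (adjusted p = 0.273) and passed with the block (adjusted p = 0.0239). Pprc1 was at 0.23 ± 0.09 (adjusted p = 0.113, and 0.0396 with the block). Other factors known for respiratory genes gave no call in either fit: Nrf1 was at −0.12 ± 0.07, Gabpa at 0.18 ± 0.07, Esrra at −0.01 ± 0.08 and Ppargc1b at 0.01 ± 0.10 (adjusted p between 0.133 and 0.987 without the block).

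**Figure D5:**
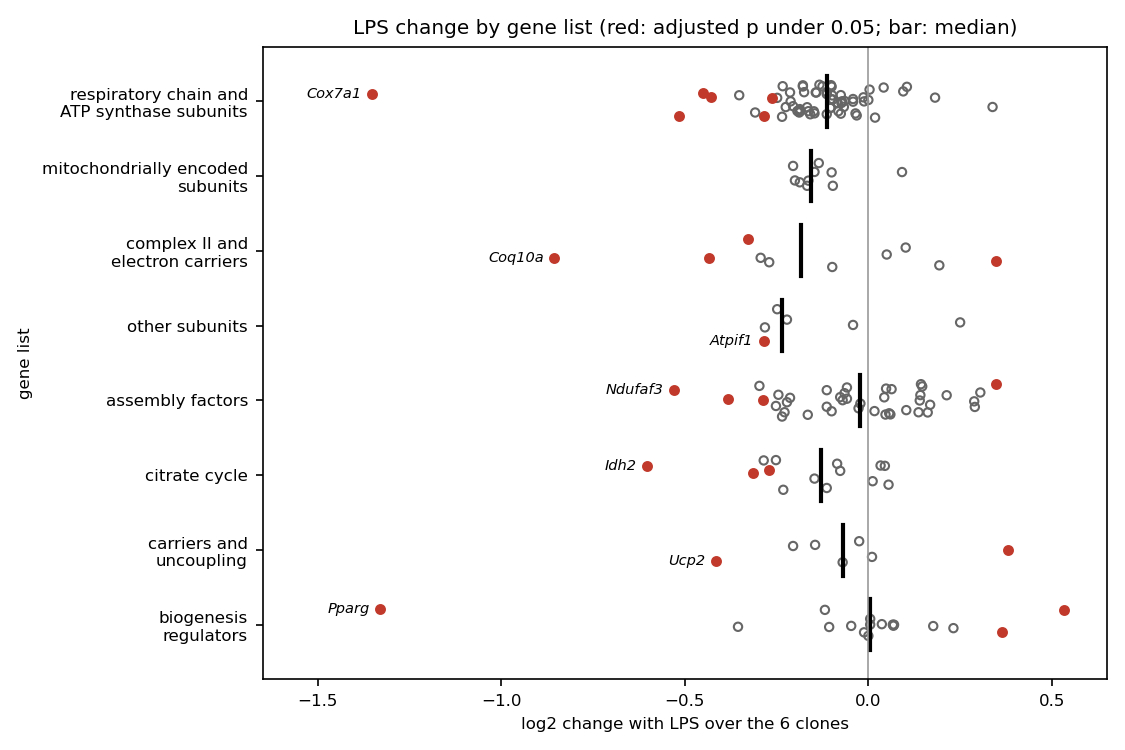
Log2 difference with LPS over the 6 clones for the 63 respiratory chain and ATP synthase genes and for 7 related gene lists; filled red points passed at an adjusted p under 0.05, open points did not, black bars are medians and the called gene of most negative difference in each list is named. The medians lie between −0.24 and 0.01, and Cox7a1, Coq10a and Pparg reach furthest to the left.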

How the data were processed

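RNA of 6 MH-S clones, with and without LPS, was measured on 12 Affymetrix MoGene 2.1 ST arrays. Per the file headers, the authors used Affymetrix Expression Console (version not given in the sources used here) and RMA, and the deposited values are log2 levels per feature, annotated with NetAffx build 34 on mm10. The deposited comparison columns hold fold changes as a signed score and p-values with q-values of a test on untransformed values; only the counts and q-values credited to the authors' table rest on them. The table held 41345 features, and the series matrix held the same values for 41155 of them (largest difference 0).

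Main-category features with a symbol (29294) were reduced to 27293 genes by the highest mean level. One limma model (3.58.1, R 4.3.3) of 4 groups with 3 arrays each gave all 6 comparisons, without a filter on low values, and p-values were adjusted by Benjamini-Hochberg over all genes with a threshold of 0.05. Errors are SE from this fit. The number of arrays limits the precision. Arrays of the same number share a clone by the labels, and the deviations of both arrays of a clone correlated at 0.10 to 0.42. Fits with the clone as a replicate block are given where they change a call among the 63 genes or, for LPS over all clones, the lists. Genes, lists and named genes were chosen with earlier results of these data known. Values on each array are given for the called genes among the 63 and for 8 fixed core subunits. The highest and lowest gene of each complex are given by array or as ranges. Genes near the level of 6 are named with their means, and only some with values on each array. Related lists are counted in full. Alternatives covered the block, the filter, the variance prior, centring, the level and leaving out each array or clone; values without clone 75 beside the results were added after seeing the data. The procedure was tested on simulated data. Scanner files were not used here, so background correction and normalization could not be varied. Tables and figures were made with Python 3.11.15, pandas 2.3.3 and matplotlib 3.10.9.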

Additional observations from a re-analysis of the deposited data

Results flagged for a closer look

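The LPS difference was examined for a clone far from the other 5, by a gap of more than 0.625 of the whole range, in the 63 genes, in 4 genes just under the level of 6 and in the median over the 63. Of these 68 tests 11 met the limit, where chance gives about 1 in 20, and the tests share the same arrays. In 9 of the 11 the clone apart was clone 75, with the lower value each time. For Uqcr11 it had −1.21, against −0.42 to −0.20 in the other clones. For Cox7b it had −1.21, against −0.27 to 0.16, and for Ndufb9 −1.14, against −0.31 to −0.07. The values of clone 75 were −0.95 for Ndufa1, −0.85 for Ndufv2, −0.70 for Atp5a1, −0.65 for Atp5g3, −0.63 for Ndufab1 and −0.47 for Cox7a2, where the other clones lay between −0.28 and 0.15. In the remaining pair clone 73 was the highest, at 0.20 for Ndufs4, against −0.16 to −0.03, and at 0.17 for Ndufb10, a membrane-arm subunit of complex I under the level of 6, against −0.36 to −0.17.

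Ndufc2 was higher with LPS in each high clone and lower in each low clone, and the difference of the responses was 0.27 ± 0.16 (limma, adjusted p = 0.983). It is 1 of the 63 genes, 1.59%, against 2.41% of all genes with opposite signs of this kind.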

How the results depend on the processing

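No call, with or without the block, reversed its direction under any alternative run. Among genes without a call, some estimates near 0 changed sign. Atp5o, below 0 over all clones, was at 0.09 without clone 75. Over all clones, 1 gene rose instead of 0 with the clone as a replicate block, with genes of a mean level under 5 left out, and without clone 75 with the block (an alternative chosen after seeing the data); the 6 falls gave counts between 2 and 6 when an array or clone was left out, and the rises 0 to 1. In high clones the same 3 settings gave 1 rise instead of 0 and 1 fall instead of 0, the intensity trend with robust variance also gave 1 fall, and leaving out an array or clone gave 0 to 1 of either. In low clones the 3 falls became 5 with the replicate block, 7 with genes of a mean level under 5 left out, 6 with the intensity trend, 1 among genes of a mean level of at least 7, and 1 to 6 when an array or clone was left out. Between high and low clones unstimulated, the 2 higher genes became 1 with arrays centred on their median, 0 with only the arrays of the groups compared, and 0 to 2 when an array or clone was left out; with LPS the count stayed at 2 in these settings. The block changed no other call among the named respiratory genes. The cause of these changes was not tested. Each clone has 1 array per condition, so differences of the size of the median, −0.11, were near the median SE of 0.09.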
